A study of Mus musculus with 36 samples.

Results

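The 51 genes described here were the Wnt ligands, their Frizzled and Lrp receptors, the secreted modulators of the Sfrp, Dkk and Rspo families and the core of the beta-catenin branch. They were chosen by symbol from the 40205 features of the count tables and not by any measured value. They comprised 19 Wnt ligands, 10 Frizzled receptors, Lrp5 and Lrp6, 4 Sfrp, 4 Dkk and 4 Rspo genes, Axin1, Axin2, Apc and Ctnnb1, and Lef1 with Tcf7, Tcf7l1 and Tcf7l2.

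RNA had been sequenced from neurospheres of C57BL/6J (Ai14) fetal mice and from the extracellular vesicles (EVs) that the neurospheres released. The neural stem cells (NSCs) came from the dorsal telencephalon, the future isocortex, of fetuses taken at mid-gestation from 3 pregnancies (sets 3, 4 and 5), and tissue was pooled by sex within a pregnancy, so that 6 cultures (3F, 3M, 4F, 4M, 5F and 5M) were grown over several passages. Each culture was kept for 5 days in medium with 0 (control), 120 or 320 mg/dL ethanol, and gave 1 EV library and 1 cell library at each dose. The 36 libraries thus held 3 of each of 12 combinations of source, sex and dose, the EVs being the small particles that passed a filter and were pelleted from the medium by ultracentrifugation.

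Wnt proteins are secreted lipid-modified ligands that bind a Frizzled receptor and an Lrp co-receptor on the receiving cell. Binding stops the Axin and Apc complex from marking beta-catenin for destruction, and beta-catenin then joins the Lef and Tcf factors on target genes, of which Axin2 and Lef1 are well known. In the fetal telencephalon, the cortical hem at the medial edge is a Wnt source, and Wnt signaling helps to set the balance between self-renewal and neuronal differentiation of cortical progenitors.

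Totals came to 0.959 to 5.51 M (mega) counts in the 18 EV libraries (median 3.83) and 26.6 to 55.3 M in the 18 cell libraries (median 37.8), and 6 EV libraries held under 2 M. The 51 genes together took 941 to 9726 counts per EV library and 24214 to 101287 per cell library, a median share of 0.159% and 0.156%. The 320 mg/dL EV library of culture 4F, with 1.55 M counts, had the lowest TMM scaling factor (0.383, against 0.958 to 1.72 in cells) and is followed below where it decides a value. Of 12 NSC marker genes, Sox2 and Sox1 were listed at 0 in all libraries, and the 12 summed to 2609 to 4160 CPM (counts scaled to a common library total) in cells and 905 to 1351 CPM in EVs. The labelled cell type thus rested on the other 10 markers. In cells 8 neuron markers also summed to 432 to 903 CPM and 6 oligodendrocyte lineage markers to 287 to 572 CPM.

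Promoter sequences were examined because several of these genes are themselves regulated through Lef and Tcf factors, whose core motif was searched as CTTTGA and, for the opposite strand, as TCAAAG. RefSeq windows of 300 bases (250 upstream of a start and 50 downstream) were matched by symbol for 33 of the 51 genes. The motif lay on either strand in 5 of their 42 windows (11.9%), against 16% of all 32851 windows of this length. The median GC content was 70.0% in the 42 windows and 52.7% in all, and the shares were not adjusted for it. The windows below are that of Axin2, a textbook target, and those of Fzd1 and Lef1, chosen because they hold the motif. They were taken from RefSeq's GRCm38.p6 table and placed on GRCm39 by exact match, at chr11:108810925-108811224 (plus strand) for Axin2, chr5:4808167-4808466 (minus strand) for Fzd1 and chr3:130949693-130949992 (plus strand) for Lef1, and capitals mark the motif.
Axin2: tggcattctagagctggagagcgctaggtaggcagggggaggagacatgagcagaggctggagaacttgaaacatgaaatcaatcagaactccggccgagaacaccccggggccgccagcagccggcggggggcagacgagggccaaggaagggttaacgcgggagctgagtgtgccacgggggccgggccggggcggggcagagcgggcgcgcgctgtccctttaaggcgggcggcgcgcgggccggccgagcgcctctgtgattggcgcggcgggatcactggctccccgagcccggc
Fzd1: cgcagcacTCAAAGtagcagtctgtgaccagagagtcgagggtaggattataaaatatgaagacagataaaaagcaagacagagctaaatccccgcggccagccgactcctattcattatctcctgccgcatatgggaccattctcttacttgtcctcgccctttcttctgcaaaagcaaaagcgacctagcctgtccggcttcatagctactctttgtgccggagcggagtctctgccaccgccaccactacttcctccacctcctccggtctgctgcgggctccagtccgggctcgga
Lef1: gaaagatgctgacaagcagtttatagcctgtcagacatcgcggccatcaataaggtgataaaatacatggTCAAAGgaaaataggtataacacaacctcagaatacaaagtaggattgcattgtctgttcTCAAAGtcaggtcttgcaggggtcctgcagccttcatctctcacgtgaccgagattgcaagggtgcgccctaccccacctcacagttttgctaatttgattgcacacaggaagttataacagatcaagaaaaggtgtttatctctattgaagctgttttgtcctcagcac
The Axin2 window held no copy of these letters. The presence of the motif in the other windows was set by their choice, with 1 copy for Fzd1 and 2 for Lef1. This Lef1 window lies at an internal start and is 1 of 4 for the gene. The Fzd1 window lies wholly upstream of the gene as placed by the GRCm39 annotation used for lengths, whose minus-strand gene begins at 4808035, so the RefSeq start differs from it. The motif was also present in windows of Wnt5b, Dkk1 and Wnt11. The series has no binding data, so these matches are letters in a window only.

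To ask how the vesicles differ from their cells-of-origin in Wnt RNAs, EVs were compared with cells over all 36 libraries by edgeR's quasi-likelihood test on TMM-scaled counts with terms for sex and dose, and a gene was called at a Benjamini-Hochberg adjusted p under 0.05. Log2 fold changes are EV over cell, and levels are CPM after TMM scaling. Among 15281 genes tested, 80.5% were called, 38.3% higher and 42.1% lower in EVs, with a median log2 fold change of -0.08. Of the 51 genes 39 were tested, of which 23 were called higher in EVs, 9 lower and 7 not, so that 32 were called in all with a median of 0.49. The 82.1% called is near the background. The 59% called higher is above its background under TMM, at 38.3%, and under library totals the share was 30.8%, against 22.4% over all genes. In bulk libraries of this kind, fewer cells of a type and less RNA per cell cannot be told apart.

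The filter on low counts needs 16 libraries at 0.624 CPM or more, and 27 of the 39 genes met it in the EVs alone and in the cells alone. Of these 27 genes 15 were called higher in EVs, 5 lower and 7 not. The remaining 12 entered through a particular source. Wnt6, Wnt10b, Rspo2, Rspo3 and Rspo4 passed through the EV libraries, Wnt2b, Fzd2, Fzd10, Sfrp2 and Sfrp4 through the cell libraries, and Dkk3 and Rspo1 through both together, so that a difference in their favor was in part set by the filter. The 12 genes that did not pass were Wnt1, Wnt8a, Wnt8b, Wnt9b, Wnt10a, Wnt11, Wnt16, Sfrp1, Sfrp5, Dkk1, Dkk2 and Dkk4, with at most 14 counts in any EV library and 37 in any cell library.

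The scale between vesicles and cells is open to choice. With library totals in place of TMM the median of all genes was -0.88 rather than -0.08. Of the 39 Wnt genes 28 were then called (71.8%, against 83.1% of all genes), 12 of them higher. Under that scale 10 of the 23 higher genes turned sign (Wnt2b, Wnt4, Wnt5b, Wnt7a, Wnt7b, Fzd8, Lrp5, Axin2, Ctnnb1 and Tcf7l2). Higher calls for Wnt6, Wnt9a, Wnt10b, Fzd5, Dkk3, Rspo1 to Rspo4, Apc and Lef1, and lower calls for Wnt5a, Fzd2 and Fzd3, were kept under every other setting in which they were tested. With the doses of a culture added up and the culture as block, which takes the 6 cultures as the units, 28 genes were called and 16 of 44 tested were higher (36.4%, against 34.6% over all genes), and the higher calls of Wnt2b, Wnt3a, Wnt4, Wnt5b, Wnt7a, Wnt7b, Fzd8, Lrp5, Axin2, Ctnnb1 and Tcf7l2 were lost. The p-values below come from the 36 libraries, which share those cultures. The plot of levels by library shows all 51 genes, and the plot of fold changes shows the 39 tested.

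**Figure D1:**
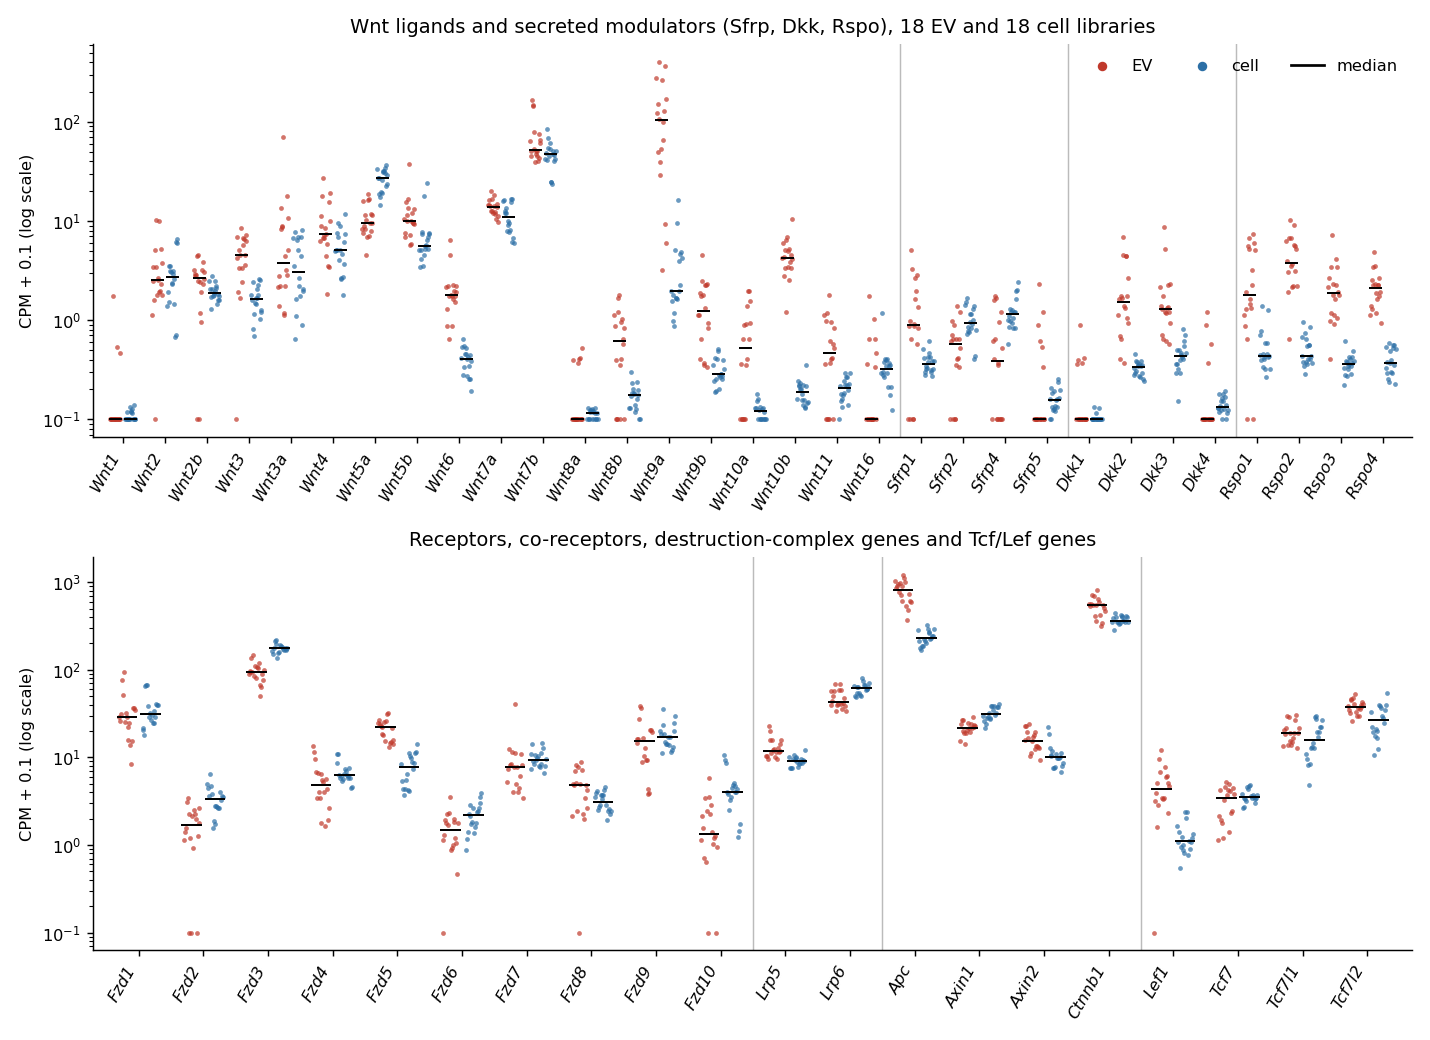
Levels of all 51 genes in the 18 EV and 18 cell libraries, as TMM-scaled CPM plus 0.1 on a log axis, with 1 point per library and a bar at the median. Wnt10b, Rspo4 and Apc show no overlap between EVs and cells, and Wnt5a and Fzd3 lie lower in EVs.

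**Figure D2:**
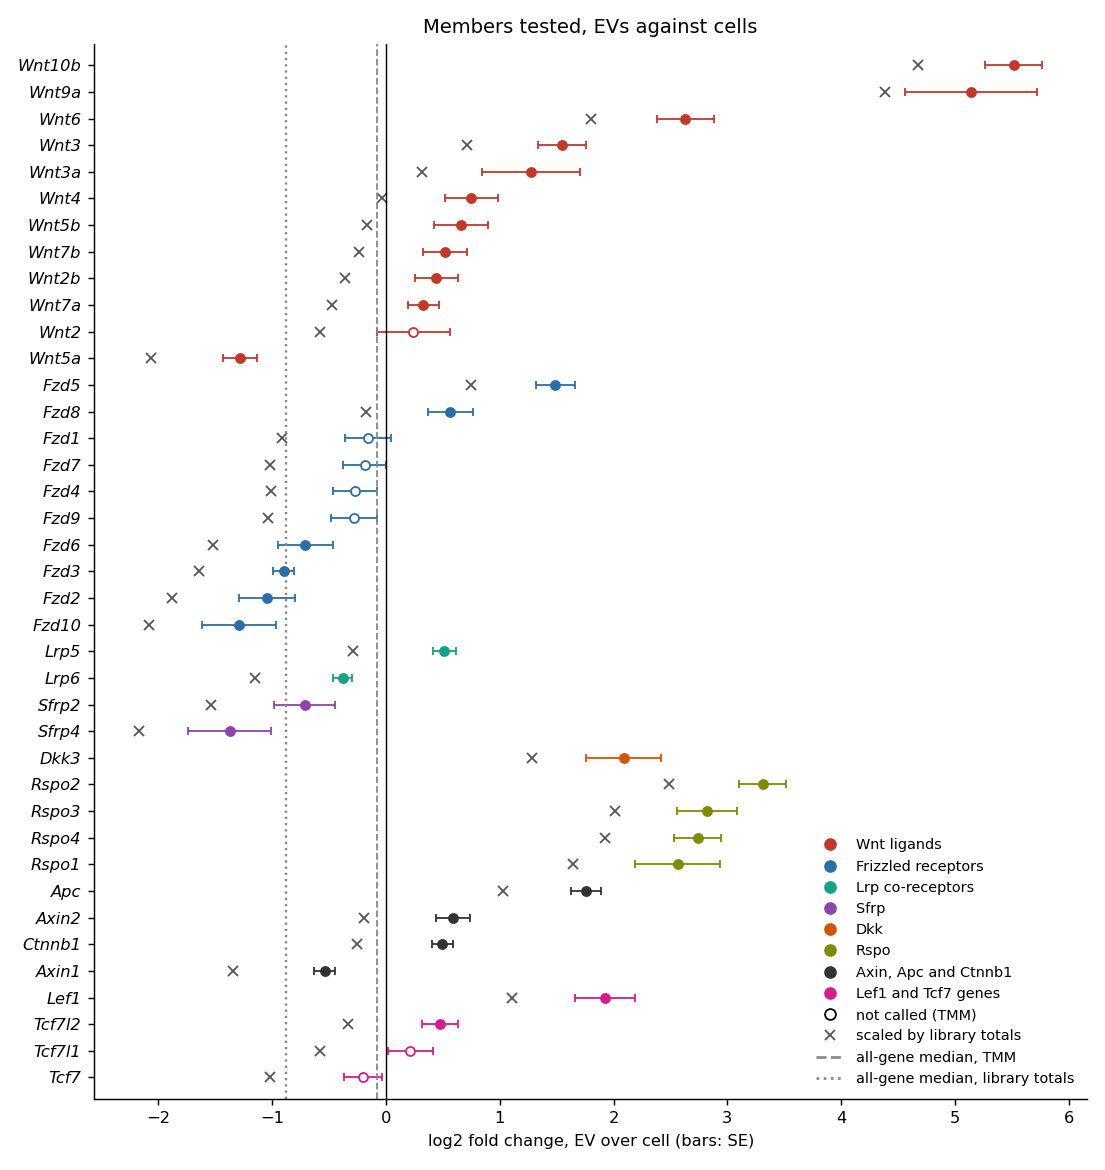
Log2 fold change of EVs over cells for the 39 tested genes by role, with the standard error of edgeR's fit as bars, open circles for genes not called and crosses for the value under library totals. The 4 Rspo genes lie to the higher side, whereas the Frizzled receptors fall on both sides of 0.

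Wnt ligands were the largest group, and 10 of 12 tested were higher in EVs, 1 was lower and Wnt2 was not called (median log2 fold change 0.70). The largest difference belonged to Wnt10b, a ligand of the beta-catenin branch, which had 1 to 25 counts per EV library (median 10) and 1 to 13 per cell library (median 4). On the CPM scale these were 1.11 to 10.5 in EVs (median 4.17) and 0.0306 to 0.251 in cells (median 0.0897), and the lowest EV library lay above the highest cell library. This was a log2 difference of 5.52 (SE 0.252, edgeR's quasi-likelihood test, adjusted p = 5.83e-21), or 45.8-fold. Wnt10b passed the filter only through EV libraries, which in part set this direction. The exons of Wnt10b overlap those of Wnt1 on the opposite strand over 489 bases, and the strand setting of the counting was not given in the sources used here, so reads of this pair may have been exchanged or dropped.

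Wnt9a, a ligand expressed in skeletal and other developing tissues, had the highest median of the ligands over the 18 EV libraries of all doses. In the control EVs alone its median was 44.5 CPM, below the 58.6 CPM of Wnt7b. Over all doses Wnt9a had 3.08 to 403 CPM in EVs (median 103) and 0.77 to 16.4 CPM in cells (median 1.87). These came from 12 to 968 and 43 to 596 counts. The EV library exceeded its cell library in 18 of 18 pairs although the ranges overlapped, and the log2 difference was 5.14 (SE 0.579, adjusted p = 9.59e-10). Levels varied widely among EV libraries of a culture, for example 3.08, 264 and 100 CPM in 4M and 9.16, 170 and 5.86 CPM in 5M at 0, 120 and 320 mg/dL. In cells, only the 120 and 320 mg/dL libraries of 4M were above 5 CPM, at 9.46 and 16.4 CPM. Wnt9a thus made up 2.84 to 78.1% of all ligand counts of an EV library (median 42.7%) and 0.654 to 16.5% of those of a cell library (median 1.68%).

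Wnt6 and Wnt3, both of the beta-catenin branch, were scarce in cells. Wnt6 had 0.546 to 6.30 CPM in EVs (median 1.68) and 0.0942 to 0.551 CPM in cells (median 0.31), with ranges that met only at their ends and a log2 difference of 2.63 (SE 0.251, adjusted p = 5.17e-12). Its EV counts were 1 to 8 per library, and it passed the filter only through EV libraries, which in part set this direction. Wnt3 had 0 to 8.49 CPM in EVs (median 4.42) against 0.599 to 2.51 CPM in cells (median 1.53), and was higher in the EVs of 17 of 18 pairs, with a log2 difference of 1.55 (SE 0.209, adjusted p = 2.05e-08). Wnt3a, the ligand of the cortical hem, was called higher (1.27, SE 0.432, adjusted p = 0.00772) but only 10 of 18 pairs lay that way. The 320 mg/dL EV library of 4F held 69.6 CPM of Wnt3a from 41 counts, against 1.03 to 17.8 CPM in the other EV libraries, and without that library, an alternative chosen after seeing the data, the call was lost.

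Among ligands, Wnt7b, Wnt7a and Wnt5a had the highest levels in cells per kilobase of exon. Wnt7b, a ligand of the cortical neuroepithelium and of brain vessel growth, had 39.0 to 166 CPM in EVs (median 52.3) and 23.5 to 84.2 CPM in cells (median 46.8). The log2 fold change was 0.52 (SE 0.192, adjusted p = 0.0137), with overlapping ranges and a sign that turned under library totals. Wnt7a, its close relative, had 9.63 to 19.9 CPM in EVs (median 13.8) and 5.90 to 16.6 CPM in cells (median 10.8), and its 0.33 (SE 0.138, adjusted p = 0.0293) became a called -0.48 under library totals. Wnt5a, which acts mainly apart from beta-catenin, was the only ligand called lower. It had 4.43 to 18.8 CPM in EVs (median 9.44) and 14.3 to 36.5 CPM in cells (median 27.1), lay below its cell library in every pair, and had a log2 difference of -1.28 (SE 0.15, adjusted p = 9.11e-10). Of the other ligands called, Wnt4 (0.75), Wnt5b (0.66) and Wnt2b (0.44) turned sign under library totals.

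Summed over the 19 ligands, EV libraries held 108 to 627 CPM (median 243) and cell libraries 83.7 to 139 CPM (median 114). The Frizzled receptors lay the other way, with 89.4 to 332 CPM in EVs (median 192) and 219 to 346 CPM in cells (median 261). Both sums overlapped between locations, and a single gene took much of each. Without Wnt9a the other 18 ligands summed to 102 to 237 CPM in EVs (median 128) and 82.2 to 137 CPM in cells (median 112). Without Fzd3 the other 9 receptors summed to 38.9 to 183 CPM in EVs (median 91.1) and 72.5 to 134 CPM in cells (median 83.1), so the lower receptor sum in EVs rested on Fzd3.

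Frizzled receptors, which bind the ligands, were lower in EVs in 4 of 10 (Fzd2, Fzd3, Fzd6 and Fzd10), higher in 2 (Fzd5 and Fzd8) and not called in 4, with a median of -0.28. Fzd3, a receptor needed for axon tracts of the forebrain, had the highest level of a receptor in cells, at 13.3 ± 1.53 CPM per exon kilobase (SD, n = 18) against 7.21 ± 1.87 in EVs. It had 50.4 to 149 CPM in EVs (median 94.7) and 135 to 216 CPM in cells (median 176), with a lower value in the EV library of every pair and a log2 difference of -0.90 (SE 0.0925, adjusted p = 4.19e-11). Fzd2 and Fzd10 were lower too, at -1.05 (SE 0.245, adjusted p = 0.000208) and -1.29 (SE 0.327, adjusted p = 0.000539). These were low in EVs, where Fzd2 had 0 to 3.32 CPM (median 1.58, cells 1.47 to 6.41) and Fzd10 had 0 to 5.64 CPM (median 1.23, cells 1.12 to 10.5). Both passed the filter only through cell libraries, which in part set this direction.

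Fzd5, a receptor of eye and forebrain development, and Fzd8 (0.57, with a sign that turned under library totals) were the receptors called higher. Fzd5 had 12.9 to 32.2 CPM in EVs (median 21.9) and 3.66 to 14.1 CPM in cells (median 7.74), was higher in the EVs of all 18 pairs, and had a log2 difference of 1.49 (SE 0.17, adjusted p = 4.84e-10). A share of 18.1% of its exon bases is overlapped by Gm38058 on the opposite strand. Fzd1 and Fzd9, the next receptors by level in cells, were not called. Fzd1 had 8.41 to 93.4 CPM in EVs (median 28.8) and 17.9 to 67.3 CPM in cells (median 31.4), with a difference of -0.16 (SE 0.2, adjusted p = 0.464). Fzd9 had 3.74 to 38.2 CPM in EVs (median 15.2) and 10.98 to 35.6 CPM in cells (median 16.9), with a difference of -0.28 (SE 0.2, adjusted p = 0.193), and it was called lower when the EV and cell library of a pair were kept as a block.

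The Lrp co-receptors, which complete the receptor complex of the beta-catenin branch, were called in opposite directions. Lrp6 had 33.9 to 68.8 CPM in EVs (median 42.7) and 49.3 to 81.3 CPM in cells (median 62.0), and was lower in EVs at -0.38 (SE 0.0865, adjusted p = 0.000143) in 16 of 18 pairs. Lrp5 had 9.47 to 22.7 CPM in EVs (median 11.8) and 7.38 to 11.97 CPM in cells (median 9.01), and was higher by 0.51 (SE 0.102, adjusted p = 2.4e-05) in 18 of 18 pairs under TMM but lay at -0.29 under library totals. Under either scale Lrp5 had the higher EV-to-cell ratio of the 2.

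Among secreted modulators the 4 Rspo genes, whose R-spondin proteins strengthen Wnt signaling by sparing Frizzled receptors from turnover, were all higher in EVs (median 2.78). Rspo2 had 0.546 to 10.2 CPM in EVs (median 3.71) and 0.188 to 0.866 CPM in cells (median 0.33), with a log2 difference of 3.31 (SE 0.206, adjusted p = 4.64e-17). Rspo4 had 0.837 to 4.73 CPM in EVs (median 1.99) and 0.126 to 0.481 CPM in cells (median 0.271), with no overlap and a log2 difference of 2.74 (SE 0.203, adjusted p = 5.92e-15). Rspo3 had 0.303 to 7.09 CPM in EVs (median 1.77) and 0.12 to 0.512 CPM in cells (median 0.265), and a log2 difference of 2.82 (SE 0.263, adjusted p = 2.91e-12). These 3 genes were higher in EVs in 18 of 18 pairs. Rspo1, at 0 to 7.28 CPM in EVs (median 1.68) and 0.165 to 1.28 CPM in cells (median 0.338), was higher in 16 pairs by 2.56 (SE 0.371, adjusted p = 8.48e-08). The sum of the 4 genes was 4.37 to 27.6 CPM in EVs (median 10.4) and 0.735 to 2.65 CPM in cells (median 1.37), with no overlap. EV counts per library were 1 to 21 for Rspo2, 1 to 11 for Rspo4, 1 to 13 for Rspo3 and 0 to 31 for Rspo1. Rspo2, Rspo3 and Rspo4 passed the filter only through EV libraries, and Rspo1 through both sources together. The filter thus in part set this direction, and these p-values are no independent support for it.

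Wnt antagonists were scarce in both sources. Sfrp2 and Sfrp4, which bind Wnt proteins outside the cell, were lower in EVs. Sfrp4 had 0 to 1.66 CPM in EVs (median 0.288) and 0.48 to 2.32 CPM in cells (median 1.05), and a log2 difference of -1.37 (SE 0.367, adjusted p = 0.000865). Sfrp2 had 0 to 1.29 CPM in EVs (median 0.468) and 0.309 to 1.57 CPM in cells (median 0.842), and a log2 difference of -0.71 (SE 0.268, adjusted p = 0.0155). Both genes passed the filter only through cell libraries, which in part set this direction. Dkk3, the divergent relative of the Lrp inhibitor Dkk1, was higher in EVs in 18 of 18 pairs, at 0.47 to 8.67 CPM (median 1.20) against 0.0513 to 0.705 CPM in cells (median 0.337), with a log2 difference of 2.09 (SE 0.329, adjusted p = 4.05e-07). It reached the filter's cut-off in 13 EV and 3 cell libraries. Dkk1, Dkk2 and Dkk4 were too low for the test. Dkk2 was higher in EVs in 18 of 18 pairs, as was the ligand Wnt9b, but from 1 to 14 and 1 to 7 counts per EV library. At such counts a single read can set the order of a pair. The 18 pairs also share 6 cultures, so this order is no support for a difference.

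In the destruction complex, Apc, the scaffold that holds beta-catenin for degradation, stood apart. It had 365 to 1202 CPM in EVs (median 818) and 167 to 326 CPM in cells (median 228), with no overlap, and a log2 difference of 1.76 (SE 0.131, adjusted p = 8.41e-15). Per exon kilobase this was 44.5 ± 13 CPM (SD, n = 18) in EVs and 13.1 ± 2.48 in cells. Axin1, the limiting scaffold of the same complex, was lower in EVs. Its 14.2 to 28.6 CPM in EVs (median 21.8) against 21.8 to 40.4 CPM in cells (median 31.0) gave -0.54 (SE 0.0911, adjusted p = 1.75e-06), with 17 of 18 pairs lower.

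Axin2, its feedback-induced relative, had 9.21 to 24.0 CPM in EVs (median 15.4) and 6.75 to 22.0 CPM in cells (median 9.89), a difference of 0.59 (SE 0.149, adjusted p = 0.000539) that turned to -0.20 under library totals. Per exon kilobase Ctnnb1, which encodes beta-catenin, was the most abundant of the genes in both sources. It had 65.0 ± 16.3 CPM per exon kilobase (SD, n = 18) in EVs and 45.7 ± 4.71 in cells. In CPM Apc lay above it in EVs, with a median of 818. Ctnnb1 had 315 to 815 CPM in EVs (median 545) and 287 to 444 CPM in cells (median 363). Its 0.49 (SE 0.0924, adjusted p = 9.09e-06) turned to -0.25 under library totals.

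Of the nuclear partners of beta-catenin, Lef1 was higher in EVs at 0 to 11.9 CPM (median 4.23) against 0.44 to 2.30 CPM in cells (median 0.997), by 1.93 (SE 0.262, adjusted p = 2.42e-08) and in 17 of 18 pairs. Tcf7l2 had the highest CPM of the 4 factors, although per exon kilobase Tcf7l1 was slightly above it in cells (3.27 against 3.08). Its CPM was 26.2 to 52.6 CPM in EVs (median 37.7) and 10.6 to 54.3 CPM in cells (median 26.4), and the log2 difference of 0.47 (SE 0.157, adjusted p = 0.00644) turned to -0.33 under library totals. Tcf7l1, which mostly represses targets, had 12.7 to 30.3 CPM in EVs (median 18.9) and 4.69 to 29.5 CPM in cells (median 15.8) and was not called (0.21, SE 0.196, adjusted p = 0.314), though under library totals it was called lower at -0.58. Tcf7 had 1.03 to 5.09 CPM in EVs (median 3.37) and 2.57 to 4.71 CPM in cells (median 3.39) and was not called (-0.20, SE 0.165, adjusted p = 0.261).

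The EV difference was larger for genes of low level in cells, in these genes and over all genes, and the filter sets part of this, since a gene that is very low in cells is tested only if it is high in EVs. Across the 39 tested genes Spearman's rho between log2 fold change and cell CPM per exon kilobase was -0.46, and across 14271 genes with a length it was -0.52. These points share the same libraries, and the cell level enters both axes. Below 0.1 CPM per kilobase in cells, the median log2 fold change was 2.66 over all genes and 3.06 over Wnt10b, Dkk3, Rspo2 and Rspo3, and between 0.1 and 0.3 it was 1.40 over all genes and 2.24 over Wnt2, Wnt6, Sfrp4, Rspo1, Rspo4 and Lef1. In the lowest of these bins 95.2% of all genes were called higher in EVs. Of the Rspo genes, Rspo2 and Rspo3 stood at 3.31 and 2.82 and Rspo1 and Rspo4 at 2.56 and 2.74, a description that the filter limits and that carries no test.

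Between 0.3 and 1 CPM per kilobase in cells the median was 0.29 over all genes and 0.12 over 10 of these genes. Between 1 and 3 CPM per kilobase the median was -0.24 over all genes and 0.66 over 7 of these genes, with Wnt3a, Wnt4, Wnt5b, Fzd5 and Axin2 called higher, Fzd10 called lower at -1.29 and Fzd7 at -0.19. Between 3 and 10 it was -0.66 over all genes and -0.16 over 9 of these genes. Between 10 and 30 it was -1.005 over all genes, close to Fzd3 at -0.90 and unlike Apc at 1.76. Over all 51 genes the order of levels was much alike in both sources, with Spearman's rho of 0.87 between EV and cell CPM per exon kilobase. The plot of fold change against level shows Wnt9a and Apc above the bulk of genes.

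**Figure D3:**
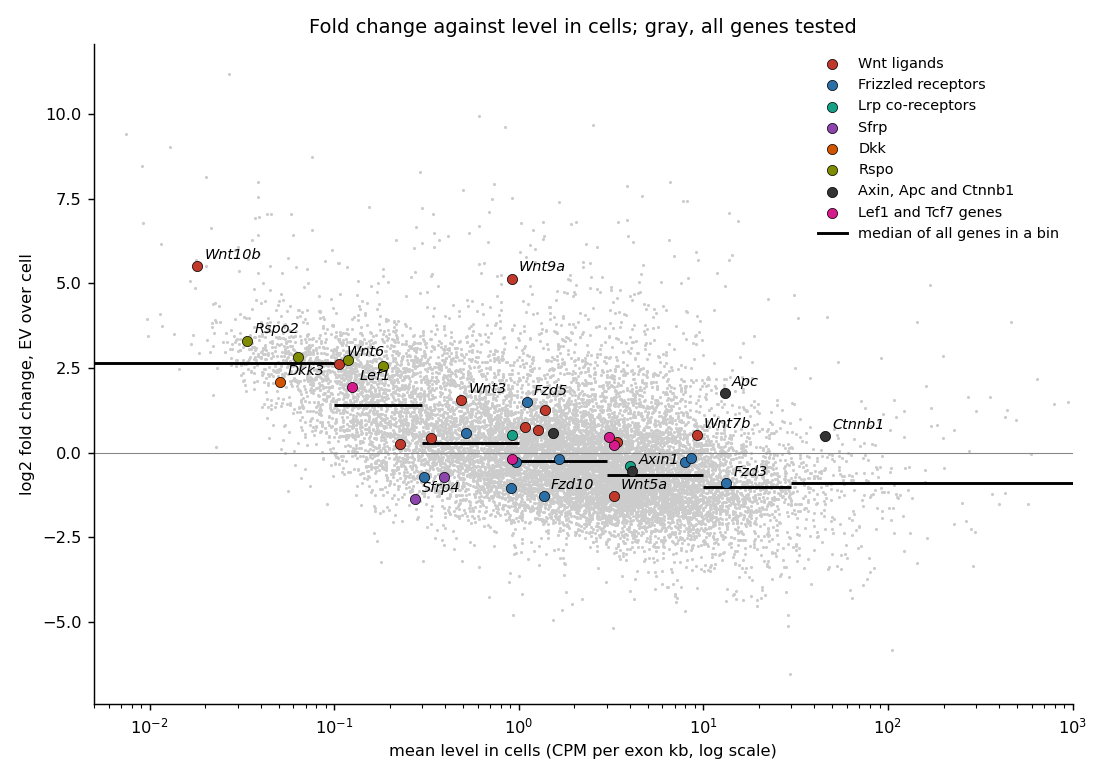
Log2 fold change of EVs over cells against the mean cell level in CPM per exon kilobase (log axis), for the 39 tested Wnt genes over all genes with a length. Wnt10b, at 5.52, and Wnt9a, at 5.14, lie highest, and Apc lies at 1.76 where the median of all genes is -1.005.

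Further genes of the pathway were read from a list of 77 symbols, of which 76 were in the files and 70 were tested. In EVs 26 (37.1%) were higher and 28 (40%) lower, near the background over all genes (38.3% and 42.1%), with a median of 0.02. The counts by role below are a description and are not set apart from that background. Among secretion factors and extracellular modulators 2 of 9 were higher and 4 lower. Wls, the carrier that brings Wnt proteins to the cell surface, was lower at -2.69, as was the Wnt inhibitor Tpbg at -2.77, whereas the secreted inhibitor Wif1 was higher at 1.94 and the Dkk receptor Kremen1 at 1.47. Among co-receptors and turnover factors 5 of 13 were higher, led by the R-spondin receptor Lgr6 (2.96) and the Wnt-binding Ryk (2.43), and 5 were lower, led by the Fzd4 partner Tspan12 (-1.73) and Ptk7 (-1.24).

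In the cytoplasm 5 of 16 were higher and 8 lower. The Apc relative Apc2 (2.78) and the Apc partner Amer1 (2.65) were higher, as Apc was, and the Axin-modifying Tnks2 (-1.47) and the beta-catenin kinase Csnk1a1 (-1.17) were lower. Among nuclear cofactors 7 of 12 were higher and 5 lower, and the Groucho repressors were split between Tle2 (2.46) on one side and Tle1 (-1.91) and Tle4 (-1.32) on the other, with the coactivator Bcl9l at 1.87. Of the 9 common target genes tested 2 were higher (Zbtb16, 1.38, and Nkd2, 0.86) and 4 lower, led by Myc (-2.23) and Bambi (-1.70). In planar cell polarity, the branch that orients cells in a sheet, 5 of 11 were higher, led by Scrib (2.68) and Celsr3 (2.13), and 2 were lower, Vangl1 (-0.63) and Daam1 (-0.32).

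Ethanol was compared with control within each source, with the culture as a block. In cells at 120 mg/dL edgeR called 0% of 17792 genes, with 433 at an unadjusted p under 0.05. Of the 42 Wnt genes tested 0 were called, with 2 at an unadjusted p under 0.05. At 320 mg/dL edgeR called 0.0393% of genes, with 1519 of 17792 at an unadjusted p under 0.05. Of the 42 Wnt genes 0 were called, with 7 at an unadjusted p under 0.05. The median SE of their log2 fold changes was 0.158 and 0.160, which sets the size of a difference that could be told from the spread. DESeq2 called 0 of 51 Wnt genes at 120 mg/dL and 1 of 35 at 320 mg/dL, against 0.0131% and 0.598% of all genes.

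Wnt4, a ligand of kidney and reproductive tract development that is also made in the brain, had the lowest p in cells at 320 mg/dL. Its cell libraries held 1.69 to 7.38 CPM in controls (median 4.46) and 3.62 to 11.5 CPM at 320 mg/dL (median 6.86), ranges that overlapped. Within cultures, the dosed library was higher in 6 of 6, and the log2 fold change was 0.72 (SE 0.135, edgeR's quasi-likelihood test, adjusted p = 0.0929). DESeq2 gave an adjusted p of 7.82e-04, and edgeR without set 3 gave 0.0245. In EVs at 320 mg/dL Wnt4 was also higher in 6 of 6 cultures, at 0.47 (SE 0.227, adjusted p = 0.427), and was not called. At 120 mg/dL it was higher in 4 of 6 cultures in cells and 3 of 6 in EVs.

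Fzd6, a receptor of planar polarity, was next in cells at 0.45 (SE 0.103, adjusted p = 0.218), followed by Sfrp4 at 0.59 (SE 0.17, adjusted p = 0.331). Both were higher at 320 mg/dL in 6 of 6 cultures, as were Sfrp2, Wnt6 and Fzd7, and Ctnnb1 was lower in 6 of 6 at -0.16, none of which was called. At 120 mg/dL the lowest p-values were those of Rspo4 (-0.57, SE 0.239), Wnt6 (0.57, SE 0.266) and Wnt5b (0.81, SE 0.39), all with an adjusted p of 1.00.

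In EVs at 120 mg/dL edgeR called 0% of 11880 genes, with 755 at an unadjusted p under 0.05. Of 28 Wnt genes 0 were called, with 1 at an unadjusted p under 0.05. At 320 mg/dL edgeR called 0.421% of genes, with 1398 of 11880 at an unadjusted p under 0.05. Of the 28 Wnt genes 0 were called, with 3 at an unadjusted p under 0.05. The median SE of these Wnt genes was 0.199 and 0.196. DESeq2 gave an adjusted p to only 8 Wnt genes at 120 mg/dL and 11 at 320 mg/dL, and called 0 of them. At these doses it called 0.299% of 4350 genes and 5.42% of 4924 genes.

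Wnt3 in EVs lay on the same side of control at both doses. It had 0 to 5.60 CPM in control EVs (median 2.06), 3.27 to 6.72 CPM at 120 mg/dL (median 5.61) and 3.28 to 8.49 CPM at 320 mg/dL (median 5.54), from 0 to 26 counts, and the ranges overlapped. The differences were 0.93 (SE 0.359, adjusted p = 0.735, higher in 6 of 6 cultures) and 0.98 (SE 0.359, adjusted p = 0.219, higher in 5 of 6), and both share the control libraries. Wnt2, a ligand of the heart and lung that was rare here, had 1.03 to 10.2 CPM in control EVs (median 3.87) and 0 to 2.37 CPM at 320 mg/dL (median 1.76). Its difference of -1.39 (SE 0.461, adjusted p = 0.160) was lower in 5 of 6 cultures, and under library totals it was called with an adjusted p of 0.045.

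Wnt7b was lower in the EVs of 6 of 6 cultures at 320 mg/dL at -0.26 (SE 0.124, adjusted p = 0.424). At 120 mg/dL Fzd4, the receptor of retinal and brain vessels, was lower in 6 of 6 at -0.54 (SE 0.271, adjusted p = 0.795), and Wnt9a lay at 2.18 (SE 1.08, adjusted p = 0.820) with 4 of 6 cultures higher. None of these differences passed the threshold. Of the further pathway genes, 2 were called in EVs at 320 mg/dL, where 0.421% of all genes were. They were the repressor Tle1 (0.71, SE 0.138, adjusted p = 0.0289) and the polarity gene Scrib (-0.80, SE 0.158, adjusted p = 0.0342), with 0 called in EVs at 120 mg/dL or in cells at either dose. The plot of ethanol lines shows the crossing values of the cultures.

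**Figure D4:**
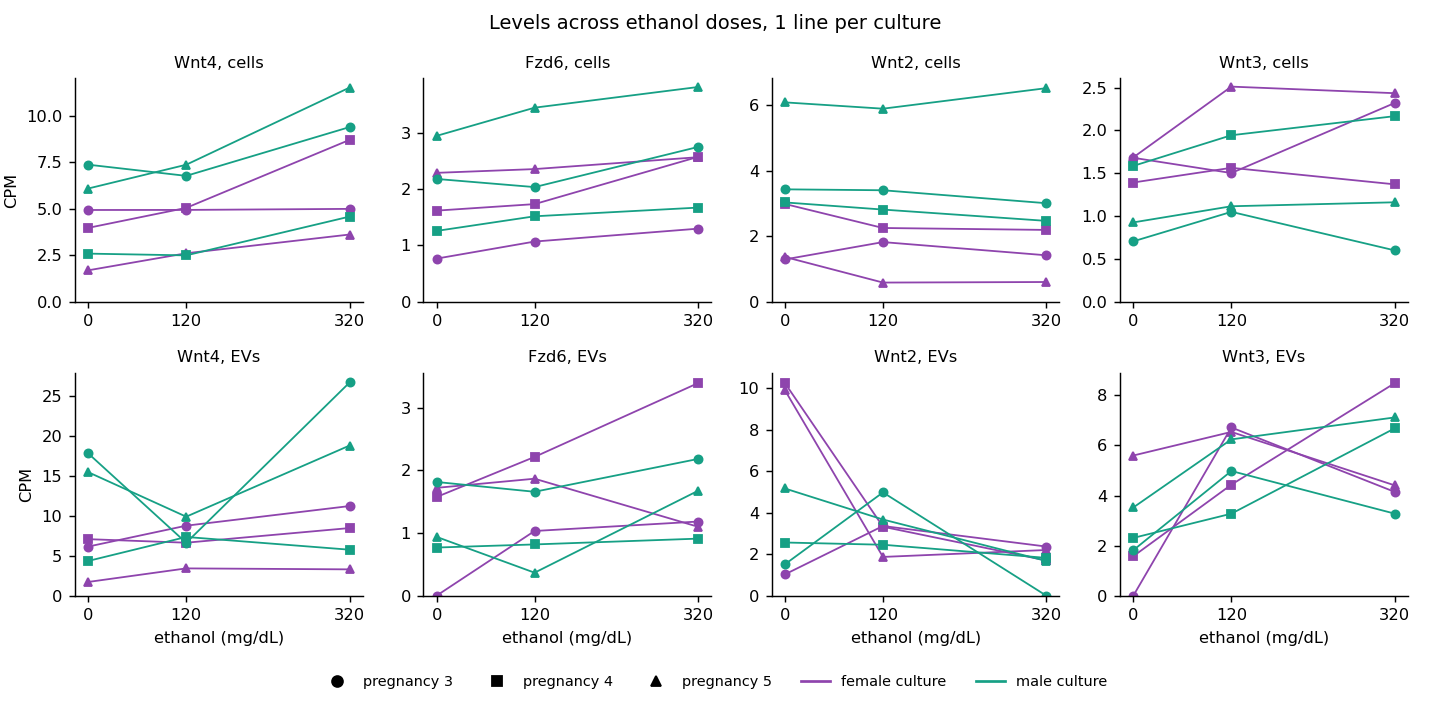
Levels of Wnt4, Fzd6, Wnt2 and Wnt3 in cells (upper panels) and EVs (lower panels), in TMM-scaled CPM at 0, 120 and 320 mg/dL ethanol, with 1 line per culture. The cell lines of Wnt4 end above their control in all 6 cultures, with an adjusted p of 0.0929 at 320 mg/dL.

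Whether ethanol shifted the ratio of EV to cell RNA was tested as an interaction in the 36 libraries. By edgeR 0% of 18728 genes were called at 120 mg/dL and also 0% at 320 mg/dL, with 146 and 202 at an unadjusted p under 0.05. Of the Wnt genes 0 were called at either dose, of 43 tested by edgeR and 51 by DESeq2. At an unadjusted p under 0.05 there were 0 Wnt genes at 120 mg/dL and 1 at 320 mg/dL. Their median SE was 0.530 at both doses, so this comparison was coarser than those within a source. The lowest p-values were those of Wnt5b (-0.81, SE 0.43), Tcf7 (0.74) and Wnt9a (2.09, SE 1.46) at 120 mg/dL and of Wnt6 (-1.32, SE 0.593), Rspo2 (-0.89, SE 0.498) and Tcf7 (0.67, SE 0.425) at 320 mg/dL, all with an adjusted p of 1.

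Cultures accounted for more of the spread than doses in most genes. The shares are of the sum of squares between 6 cultures or between 3 doses. They were not adjusted for the number of groups, which by itself favors the culture. In cells the culture accounted for a median of 74.3% of the variance of log2 CPM over 42 Wnt genes and the dose for 3.46%, near the 74.6% and 2.58% of 17216 genes. Fzd1 had the highest culture share in cells, 95.1%, and the 3 libraries of 3M held 65.0 to 67.3 CPM and the 15 others 17.9 to 40.1 CPM. By the ratio of the highest to the lowest culture mean Fzd10 (6.86) varied more than Fzd1 (3.33). Shares of 94.6% for Fzd10, 94.4% for Wnt7a, 92.4% for Wnt2 and 90.2% for Wnt7b followed. In EVs the medians over 28 Wnt genes were 64.1% for the culture and 5.65% for the dose, against 56.1% and 6.13% over 11880 genes. Wnt3 was the 1 gene of the 28 with a dose share (31.1%) above its culture share (23.1%), and Wnt2 had 24.2% and 26.4%. Over all 11880 genes 440 had a dose share above the culture share, so 1 of 28 is near the background. In EVs the culture shares of Fzd9 (95.3%), Fzd1 (90.4%), Wnt7b (89.0%) and Apc (85.9%) were highest.

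Females were compared with males within each source, 9 libraries each, with a term for dose. The 3 libraries of a culture count there as independent samples, so a p-value measures the spread of these libraries, which share 3 cultures per sex. In cells 5.75% of 17052 genes were called, with 3781 at an unadjusted p under 0.05. Of 41 Wnt genes tested there 5 were called, with 17 at an unadjusted p under 0.05. In EVs 11.4% of 11037 genes were called, with 3413 at an unadjusted p under 0.05. Of 26 Wnt genes tested there 1 was called, with 8 at an unadjusted p under 0.05. With the pregnancy as a block 14 of the Wnt genes (34.1%) were called in cells, where 17.2% of all genes were, and 7 (26.9%) in EVs, where 27.3% of all genes were, and 0 in either source once the 3 doses of a culture were added up, which leaves 3 sums against 3.

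Wnt3a differed most by sex. Female cells held 3.38 to 7.98 CPM (median 6.66) and male cells 0.546 to 2.57 CPM (median 1.65), with no overlap and the same order in 3 of 3 pregnancies. The log2 fold change of females over males was 1.95 (SE 0.271, adjusted p = 7.37e-04). In EVs, females held 1.29 to 69.6 CPM (median 3.11) and males 1.03 to 17.8 CPM (median 5.02), the ranges overlapped, and Wnt3a was not called (adjusted p = 0.846) and was higher in females in 1 of 3 pregnancies. Whether the sex difference itself differed between EVs and cells was not tested.

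Wnt2 had the opposite order in cells, with 0.582 to 2.99 CPM in females (median 1.42) and 2.47 to 6.53 CPM in males (median 3.41), at -1.39 (SE 0.319, adjusted p = 0.0175). The receptor Fzd9 was also lower in female cells, with 10.98 to 19.7 CPM (median 14.2) against 13.7 to 35.6 CPM (median 20.1), at -0.66 (SE 0.177, adjusted p = 0.0365). Both ranges overlapped. Without set 5 only Wnt3a was still called in cells.

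Both R-spondins called by sex were higher in females. Rspo2 had 0.274 to 0.866 CPM in female cells (median 0.547) and 0.188 to 0.448 CPM in male cells (median 0.282), at 0.83 (SE 0.22, adjusted p = 0.0336), and Rspo4 had 0.231 to 0.481 CPM in female cells (median 0.421) and 0.126 to 0.411 CPM in male cells (median 0.194), at 0.79 (SE 0.212, adjusted p = 0.0366). In EVs Rspo2 was the only gene called, with 2.96 to 10.2 CPM in females (median 5.61) and 0.546 to 6.64 CPM in males (median 2.13), at 1.15 (SE 0.302, adjusted p = 0.0244). It was followed by Wnt7b (-0.71, SE 0.273, adjusted p = 0.0911) and Fzd9 (-0.95, SE 0.379, adjusted p = 0.102). Without set 4 Rspo2 in EVs had an adjusted p of 0.165 and under library totals one of 0.0512.

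Of the 76 further pathway genes in the files 7 were called by sex in EVs and 6 in cells, where 11.4% and 5.75% of all genes tested were. Lgr6, a receptor of R-spondins, was higher in females in both, at 1.06 (SE 0.345, adjusted p = 0.0499) and 0.76 (SE 0.184, adjusted p = 0.0227). Lgr6 was singled out after its values were seen.

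Marker sums of some other cell types differed with sex in cells, although most of their markers were not called. The 6 choroid plexus and cortical hem markers summed to 6.60 to 31.7 CPM in female cells and 1.57 to 4.17 CPM in male cells, with no overlap, and to 7.70 to 36.3 CPM and 5.75 to 11.3 CPM in the EVs. In this list, Otx2 was the only marker called in cells (log2 fold change 3.08) and Lmx1a the only one in EVs (1.09, adjusted p = 0.0308). The 4 astrocyte markers, of which Aqp4 was at 0 in all libraries and 1 was called in cells, summed to 48.4 to 248 CPM in male cells and 19.7 to 93.2 CPM in female cells. Of the endothelial and meningeal fibroblast markers 0 were called by sex in either source, and their sums overlapped. The part of any of these markers in the sex differences of Wnt3a, Wnt2, Fzd9, Rspo2 and Rspo4 was not tested. The plot of sex by culture gives the values of each culture.

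**Figure D5:**
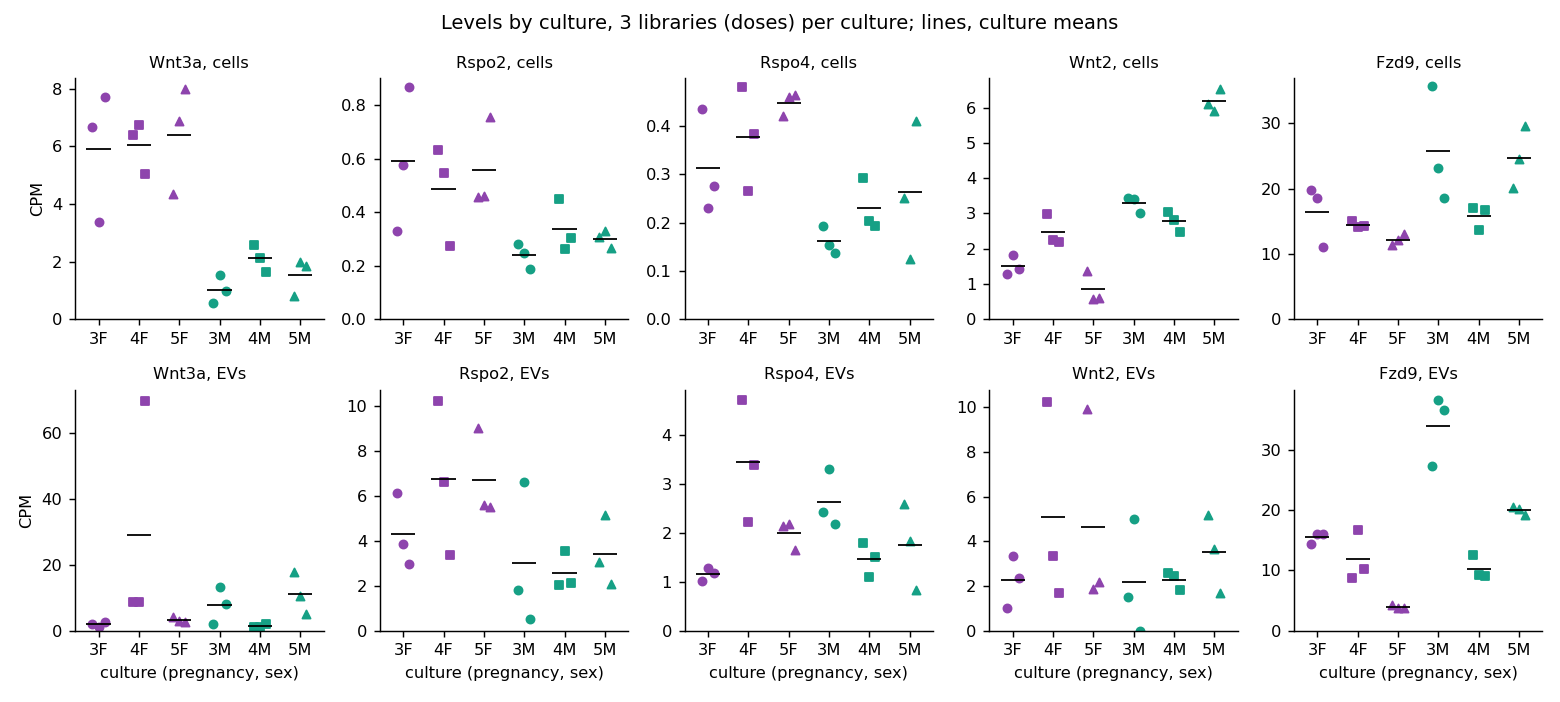
Levels of the Wnt genes called by sex, in TMM-scaled CPM on a linear axis from 0, by culture, with 3 points (the doses) and a bar at their mean per culture, in cells (upper panels) and EVs (lower panels). Wnt3a lies at 3.38 CPM or more in all female cell libraries and at 2.57 CPM or less in all male cell libraries.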

How the data were processed

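RNA-seq counts of 18 EV and 18 cell libraries were used, 1 of each from 6 cultures at 3 doses. Per the paper's methods, the authors trimmed and deduplicated reads (SeqSense, Trimmomatic), aligned them to mm39 with STAR and assigned them to genes by HTSeq. Whole counts, not normalized, are what was deposited.

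In edgeR 4.0.16 (R 4.3.3), low genes were removed with filterByExpr (at least 10 counts, and 15 in total). TMM scaling and the quasi-likelihood test were applied to all features, and calls were made below a Benjamini-Hochberg adjusted p of 0.05. The model of EVs against cells had sex and dose as terms, and that of ethanol within a source the culture as block. That of the EV:cell ratio had the pair as block, location and a location by dose term, and that of sex the dose. Shared culture pairs the EV and cell libraries by design, although the correlation of their deviations from group means was over 0.1 in 4 of 18 pairs (median 0.0719). For a dose and its control medians were 0.191 and 0.210 in EVs and 0.715 and 0.621 in cells, and for the sexes of a pregnancy 0.106 and 0.376. Log2 CPM for variance shares used a prior count of 1, and exon lengths are those of the GRCm39 annotation.

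Full values are given for up to 4 called genes of each role with the largest change and the 3 of highest cell level, and in the other comparisons for all called genes or the 3 of lowest p. The genes, lists and rules were chosen with earlier results of these data known. Alternatives were DESeq2 1.42.0, other size factors, library totals, no filter, thinning, leaving out each pregnancy, adding or removing blocks, summing over doses and subsets of libraries. Leaving out the 6 EV libraries under 2 M counts, or the 320 mg/dL EV library of culture 4F, was an alternative chosen after seeing the data. The edgeR models were first run on simulated counts drawn without a culture effect. Those runs cannot show how libraries that share a culture affect the p-values, and no result here rests on them. Figures were drawn with Python 3.11.15 and matplotlib 3.10.9.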

Additional observations from a re-analysis of the deposited data

How the results depend on the processing

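EV counts limit what is detectable, since many genes had under 30 counts per EV library, and no scale between EVs and cells is known to be right. Between EVs and cells 32 genes were called, and 24 to 28 without a pregnancy, 17 in the control libraries alone and 12 after thinning every library to the smallest, where fewer libraries or counts were tested. The shares called were 66.7 to 73.7% without a pregnancy, against 75.4 to 77.2% of all genes. They were 45.9% against 64.9% in the controls alone and 75% against 78.9% after thinning. In the controls alone 29.7% were called higher, against 30.3% of all genes, and after thinning 62.5% against 39.2%. With the replicate block of the EV and cell library of a pair 32 were called (21 higher), with Wnt2b and Wnt3a lost and Fzd4 and Fzd9 gained, and with counts summed over doses and the culture as replicate block 28 (16 higher), with 11 of the 23 higher calls lost. The shares called with these blocks were 82.1% and 63.6%, against 79.7% and 69.9% of all genes. Leaving out the 6 EV libraries under 2 M counts gave 31 (19 higher), and leaving out the 320 mg/dL EV library of culture 4F gave 32 (20 higher), with the calls of Wnt2b, Wnt3a, Wnt5b, Wnt7a, Wnt7b and Tcf7l2 lost. The shares called in these subsets were 73.8% and 76.2%, against 77.5% and 79.8% of all genes. DESeq2 called 42 of 51 (82.4%, against 75.2% of all genes) and edgeR without a filter 35 (68.6%, against 70.8%). The shares called higher were 66.7% against 54.8% with DESeq2 and 39.2% against 40.7% without the filter. Under library totals the log2 fold change was -0.36 for Wnt2b, -0.0307 for Wnt4, -0.16 for Wnt5b, -0.48 for Wnt7a, -0.24 for Wnt7b, -0.17 for Fzd8, -0.29 for Lrp5, -0.20 for Axin2, -0.25 for Ctnnb1, -0.33 for Tcf7l2 and -0.58 for Tcf7l1. Without the filter it was -0.17 for Wnt2b, -0.29 for Wnt7a, -0.11 for Wnt7b, -0.0324 for Fzd8, -0.12 for Lrp5, -0.0183 for Axin2, -0.13 for Ctnnb1, -0.18 for Tcf7l2 and -0.44 for Tcf7l1. For ethanol, 0 genes were called in each comparison without the replicate block, and 1 in EVs at 320 mg/dL under library totals (Wnt2) and 1 in cells at 320 mg/dL with DESeq2 or without set 3 (Wnt4), for a range of 0 to 1 on leaving out a pregnancy. For sex in EVs, where 1 gene was called, the count was 4 with DESeq2, 3 without the filter, 7 with the pregnancy as replicate block, 0 under library totals, summed counts or without the 6 smallest EV libraries, and 0 to 4 without a pregnancy. The shares were 9.52% with DESeq2 and 5.88% without the filter, against 15% and 6.69% of all genes. Without a pregnancy they were 0 to 15.4%, against 0.0203 to 23.4%. For sex in cells, where 5 were called, the count was 10, 3 and 14 with DESeq2, without the filter and with the pregnancy as replicate block, 0 with summed counts and 1 to 8 without a pregnancy. The shares were 22.2% with DESeq2 and 5.88% without the filter, against 9.91% and 3.06% of all genes. Without a pregnancy they were 2.44 to 19.5%, against 0.947 to 12.1%. The cause of these shifts was not tested. The block changed no other count of calls by more than 1.5 times.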
